A study of Mus musculus with 8 samples.

Results

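The regulators described here are 10 transcription and chromatin factors, *Ikzf1*, *Ikzf2*, *Ikzf3*, *Irf4*, *Irf8*, *Spi1*, *Spib*, *Ets1*, *Brwd1* and *Bcl6*, read as 1 named list of factors that end the expansion of large pre-B cells and open the light chain locus. They were chosen by name, with earlier results of these data known. All 10 were found among the 27179 genes of the count table and passed the expression filter. RNA of early large pre-B (early LPre-B) and small pre-B (sPre-B) cells sorted from mouse bone marrow was sequenced in 8 libraries, 2 for each of 4 groups. All 4 groups were floxed at both *Upf1* alleles (*Upf1* Flox/Flox) and carried a pre-rearranged heavy chain allele in a single copy (*Igh* B1-8hi/+). The cKO/Igh B1-8hi groups carried in addition Mb1 Cre/+, a Cre placed in the *Cd79a* locus that acts from the first B lineage stages on, and the Ctrl/Igh B1-8hi groups were Mb1 +/+. Mice of both sexes were used, age-matched and on a C57BL/6 background. Early LPre-B cells were sorted as large CD43+ cells without CD2, and sPre-B cells as small cells with CD2 and CD25. The study's methods call its data points independent biological replicates, while the labels do not tie a library to a mouse, and P values measure only the spread between these libraries.

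Signalling from the pre-B cell receptor and withdrawal from IL-7 end the division of large pre-B cells, after which the light chain loci become accessible. Ikaros (*Ikzf1*) and Aiolos (*Ikzf3*) are zinc finger proteins that silence the surrogate light chain genes and restrain proliferation, and the closely related factors IRF4 and IRF8 act at light chain enhancers together with the ETS factors PU.1 (*Spi1*) and SpiB (*Spib*). BRWD1 reads acetylated histones and acts at the kappa light chain locus in small pre-B cells, and BCL6 is a repressor that protects pre-B cells while their DNA is cut. UPF1, the deleted gene product, is an RNA helicase of nonsense-mediated mRNA decay.

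Totals per library lay between 68516857 and 160426338 counts, so that 3 counts, taken as the smallest level that could be shown, corresponded to 0.0217 to 0.0426 counts-per-million (CPM), a count scaled by library size and TMM factor. This floor covers counting error only. *Upf1* was at 237 and 213 CPM in Ctrl and 244 and 258 in cKO early LPre-B cells, and at 186 and 198 in Ctrl and 282 and 293 in cKO sPre-B cells, where it was higher (Log2FC 0.59, adjusted P = 0.00245, edgeR's quasi-likelihood test). Only exons in a part of the gene were floxed, so the gene-level count is no check of the cKO label, and each direction below rests on that label. *Cd79a*, in which Cre was placed, was lower in the libraries labelled cKO, by a Log2FC of −1.77 (adjusted P = 0.000157) in early LPre-B and −2.08 (adjusted P = 7.05e-05) in sPre-B cells in edgeR's quasi-likelihood test. The markers *Spn* and *Kit* and the surrogate light chain genes *Igll1* and *Vpreb1* summed to 467 to 779.9 CPM in the early LPre-B libraries. In the sPre-B libraries they summed to 59.9 to 83.4, in the order that the stage labels give. Replicate 2 of both Ctrl groups carried Y-linked counts (19733 and 28205 over 4 genes) and the other 6 libraries at most 34, so that the 2 Ctrl replicates of a stage differ in the sex of the mice they hold. The 6 markers of B cell precursors, *Cd79a* among them, summed to 2504 and 2461 CPM in Ctrl and 1712 and 1737 in cKO early LPre-B cells, and to 5503 and 6228 in Ctrl and 4387 and 3940.3 in cKO sPre-B cells. All 6 were higher in sPre-B cells of both genotypes, beside 29.1% of all genes tested in Ctrl and 31.6% in cKO cells. In cKO against Ctrl cells 3 were lower at the early LPre-B and 2 at the sPre-B stage, beside 16.9% and 14.9% of all genes. *Cd79a* was among them at both stages. Its locus carries the Cre in the cKO groups only, so its calls and its share of the sums do not measure B cell precursor content. The part of the 6 markers in the results below was not tested. In bulk RNA, fewer cells of a type and less RNA per cell cannot be told apart.

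The promoters of *Spib*, *Irf4*, *Irf8* and *Bcl6* are shown because these genes rose from early LPre-B to sPre-B cells in at least 1 genotype and their RefSeq start lies within 30 bases of the gene start in the GENCODE annotation. RefSeq windows of build GRCm38.p6 were at hand for 6 of the 10 genes, among them also *Ikzf1* and *Brwd1*. Each run is the 250 bases before the start, 5′ to 3′ on the strand of the gene, with the ETS core GGAA or its reverse complement TTCC in capitals. They lie at chr7:44532072-44532321, minus strand (*Spib*), chr13:30748983-30749232, plus strand (*Irf4*), chr8:120736108-120736357, plus strand (*Irf8*) and chr16:23988853-23989102, minus strand (*Bcl6*).
Spib: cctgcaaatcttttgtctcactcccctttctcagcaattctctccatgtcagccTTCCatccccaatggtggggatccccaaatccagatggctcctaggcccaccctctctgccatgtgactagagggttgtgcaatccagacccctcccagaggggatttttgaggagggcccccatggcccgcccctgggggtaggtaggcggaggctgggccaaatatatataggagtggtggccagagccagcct
Irf4: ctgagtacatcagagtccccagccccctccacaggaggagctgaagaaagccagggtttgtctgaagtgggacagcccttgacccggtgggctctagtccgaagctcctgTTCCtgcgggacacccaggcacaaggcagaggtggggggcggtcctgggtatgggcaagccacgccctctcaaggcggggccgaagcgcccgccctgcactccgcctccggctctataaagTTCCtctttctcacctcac
Irf8: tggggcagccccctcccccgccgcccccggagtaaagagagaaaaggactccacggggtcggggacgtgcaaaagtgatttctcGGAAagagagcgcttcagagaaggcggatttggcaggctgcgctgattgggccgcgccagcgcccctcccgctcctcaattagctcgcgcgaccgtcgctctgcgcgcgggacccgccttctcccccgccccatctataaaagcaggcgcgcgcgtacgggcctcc
Bcl6: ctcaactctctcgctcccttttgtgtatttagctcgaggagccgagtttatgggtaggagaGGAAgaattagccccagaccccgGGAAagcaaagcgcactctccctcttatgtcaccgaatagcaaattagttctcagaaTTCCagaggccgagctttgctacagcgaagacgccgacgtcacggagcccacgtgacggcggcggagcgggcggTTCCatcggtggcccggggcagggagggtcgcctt
The ETS core was found 1 time before *Spib*, 2 times before *Irf4*, 1 time before *Irf8* and 4 times before *Bcl6*, against a median of 3 in all 32851 promoter windows, 93.4% of which hold at least 1. The Ikaros core TGGGAA, which contains an ETS core, was searched on both strands and was absent from these 4 windows, and 21.6% of all windows hold it. The ETS-IRF composite, GGAA followed after 2 free bases by GAAA, at which PU.1 and IRF4 can bind as a pair, was likewise absent from the 4 windows and present in 2.30% of all windows. A pair of IRF cores, GAAA followed after 2 free bases by GAAA, was absent from the 4 windows and present in 2.98% of all. RefSeq lists a second start for *Irf8* and for *Bcl6*, whose windows are not printed because they lie 2281 and 7583 bases from the gene start. The second *Irf8* window held 1 Ikaros core and 2 ETS cores, and the second *Bcl6* window held 1 ETS-IRF composite and 7 ETS cores. These matches describe the letters of a short window and show neither a bound site nor its absence elsewhere.

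From early LPre-B to sPre-B cells the regulators rose or had no called change. In Ctrl/Igh B1-8hi cells 6 of the 10 (*Ikzf3*, *Irf4*, *Irf8*, *Spi1*, *Spib* and *Brwd1*) were higher in sPre-B cells at an adjusted P under 0.05 in edgeR's quasi-likelihood test, beside 29.1% of all 17700 genes tested. None was called lower, beside 31.1% of all genes, and none was lower at an unadjusted P under 0.05 or with DESeq2. In cKO/Igh B1-8hi cells 8 were higher, the same 6 with *Bcl6* and *Ikzf2*, beside 31.6% of all genes. Again 0 were lower, beside 31.1%, and 0 at an unadjusted P under 0.05 or with DESeq2. The median Log2FC of the 10 was 0.53 in Ctrl and 0.82 in cKO cells, against 0.02 and 0.05 over all genes. The 6 calls in Ctrl cells held on leaving out any single library, with the lone library of a group taken to vary like the others. In cKO cells *Ikzf3*, *Spi1*, *Spib*, *Brwd1* and *Bcl6* held in the same way. Without both Ctrl replicate 2 libraries, 5 genes were called in Ctrl cells: *Irf4* (adjusted P = 0.0705) and *Irf8* (adjusted P = 0.0674) were no longer called in edgeR's test, and *Bcl6* was (adjusted P = 0.0129).

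In cKO against Ctrl cells the regulators were mostly lower at the early LPre-B stage and were called in both directions at the sPre-B stage. In early LPre-B cells 7 of the 10 were lower in cKO than in Ctrl (*Ikzf1*, *Ikzf3*, *Irf4*, *Spi1*, *Spib*, *Ets1* and *Bcl6*), beside 16.9% of all genes tested. None was called higher in edgeR's test, beside 14.5%, whereas 1, *Irf8*, was higher at an unadjusted P under 0.05 and with DESeq2. In sPre-B cells 4 were lower (*Ikzf1*, *Irf4*, *Spi1* and *Ets1*), beside 14.9%, and 3 were higher (*Ikzf2*, *Irf8* and *Bcl6*), beside 19.8%. The median Log2FC of the 10 was −0.59 in early LPre-B cells, against −0.06 over all genes, and −0.25 in sPre-B cells, against 0.01. These 2 comparisons and the comparisons between stages share libraries. *Spi1* and *Ets1* held on leaving out any single library at both stages, and the other calls did not. In early LPre-B cells the 7 calls, all lower, became 2 without cKO replicate 1 and 4 without cKO replicate 2 or without Ctrl replicate 2. Without Ctrl replicate 1 there were 5 calls: *Ikzf3*, *Spi1*, *Ets1* and also *Brwd1* lower, and *Irf8* higher (Log2FC 0.60, adjusted P = 0.0142, edgeR's test). In sPre-B cells the 7 calls became 2 without cKO replicate 1 and 4 without cKO replicate 2 or without either Ctrl replicate. Without both Ctrl replicate 2 libraries 4 calls remained in early LPre-B cells (*Ikzf3*, *Spi1*, *Ets1* and *Bcl6*), and *Ikzf1*, *Irf4* and *Spib* had adjusted P values of 0.0847, 0.0916 and 0.0542 in edgeR's test. In sPre-B cells 6 calls remained without them, with *Ikzf2* at an adjusted P of 0.0550 and *Bcl6* at a Log2FC of 0.44 (adjusted P = 0.0445).

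**Figure D1:**
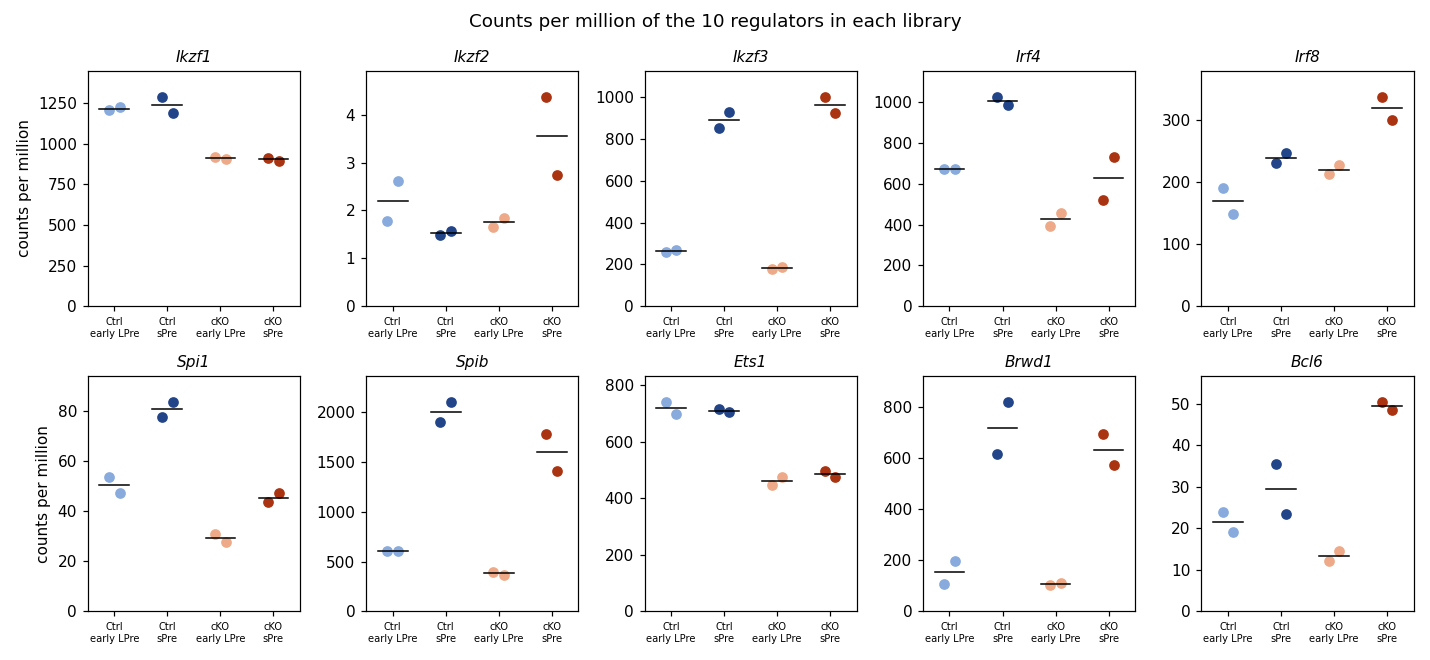
CPM (linear axis from 0) of each of the 10 regulators in the 8 libraries, 2 points per group with a black line at their mean. *Ikzf3*, *Spib* and *Brwd1* stand far higher in sPre-B than in early LPre-B libraries of either genotype, *Ikzf1* and *Ets1* lie lower in the 4 cKO libraries than in the 4 Ctrl libraries at both stages, and *Bcl6* is highest in cKO sPre-B cells.

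The order of the levels was set by CPM per kilobase of annotated exon, since lengths differ between genes. In Ctrl early LPre-B cells *Ikzf1* (216 and 219 per kilobase in replicates 1 and 2) and *Spib* (216 and 216) stood first and did not differ beyond their spread. *Ets1* (146 and 137) and *Irf4* (141 and 141) followed, with overlapping values. *Ikzf3* (71.1 and 73.0), *Irf8* (55.5 and 43.5) and *Spi1* (26.3 and 23.3) were lower, each apart from its neighbours. *Brwd1* (7.44 and 13.5), *Bcl6* (6.81 and 5.40) and *Ikzf2* (0.186 and 0.274) closed the order. In Ctrl sPre-B cells *Spib* stood far above the rest at 680.2 and 752, and *Ikzf3* at 234 and 254, *Ikzf1* at 231 and 213 and *Irf4* at 215 and 206 followed. *Ikzf1* overlapped *Irf4* there, and the values of *Ikzf3* lay just above those of *Ikzf1*. With all annotated exons in place of the basic set, *Ikzf3* is 8754 bases long and not 3658, and it then ranked below *Ikzf1* and *Irf4* in sPre-B cells of both genotypes. In cKO early LPre-B cells *Ikzf1* (164 and 162) stood above *Spib* (143 and 130.3), and *Irf8* (62.0 and 66.4) above *Ikzf3* (48.1 and 51.5). In cKO sPre-B cells *Spib* (638 and 507), *Ikzf3* (274 and 252), *Ikzf1* (164 and 160.1) and *Irf4* (109 and 154) led without overlap, and *Ets1* (97.5 and 93.9) and *Irf8* (98.4 and 87.6) overlapped each other.

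Within the Ikaros family, *Ikzf3* rose with stage in both genotypes, and *Ikzf1* was lower in cKO cells at both stages. *Ikzf1* (Entrez 22778, chr11:11684962-11772930 of mm10, as for the genes below in the bounds of GENCODE) had 1207 and 1224 CPM in Ctrl early LPre-B, 1288 and 1189 in Ctrl sPre-B, 917 and 904 in cKO early LPre-B and 913 and 894 in cKO sPre-B cells. All 4 cKO libraries were lower than all 4 Ctrl libraries, and the stages overlapped within each genotype. Its Log2FC for cKO against Ctrl was −0.42 (SE 0.13, adjusted P = 0.0355) in early LPre-B and −0.46 (SE 0.13, adjusted P = 0.0229) in sPre-B cells in edgeR's quasi-likelihood test with Benjamini-Hochberg adjustment, which is used for every adjusted P below. The call in early LPre-B cells was lost on leaving out any library of these 2 groups or either cKO sPre-B library, at a largest adjusted P of 0.141 in edgeR's test. The call in sPre-B cells was lost without Ctrl replicate 1 or either cKO library, at a largest adjusted P of 0.112 in edgeR's test. The early LPre-B call of *Ikzf1* was also lost in edgeR's test without the expression filter (Log2FC −0.41, adjusted P = 0.0557). With only the 4 libraries compared it was lost as well (−0.35, adjusted P = 0.0732, edgeR's test). Between stages its Log2FC was 0.03 (95% interval −0.26 to 0.31) in Ctrl and −0.01 (−0.30 to 0.28) in cKO cells. The annotation places the gene *Gm11999* over *Ikzf1*, and the table holds no row for it.

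*Ikzf3* (Entrez 22780, chr11:98464610-98546031), the relative of Ikaros that is known to rise with pre-B cell receptor signalling, had 260.0 and 267 CPM in Ctrl early LPre-B and 855 and 929 in Ctrl sPre-B cells. Its cKO values were 176 and 188 at the early LPre-B stage and 1002 and 924 at the sPre-B stage. The stages did not overlap in either genotype. Its Log2FC between stages was 1.76 (SE 0.12, adjusted P = 5.70e-06) in Ctrl and 2.40 (SE 0.12, adjusted P = 1.94e-06) in cKO cells in edgeR's test. In early LPre-B cells both cKO libraries lay below both Ctrl libraries, with a Log2FC of −0.53 (SE 0.12, adjusted P = 0.00944), a call lost without cKO replicate 1 (adjusted P = 0.0813). In sPre-B cells the genotypes overlapped (Log2FC 0.11, adjusted P = 0.501, 95% interval −0.15 to 0.37). The rise was larger in cKO cells by 0.64 on the log2 scale (SE 0.16), which did not pass the interaction test in edgeR (adjusted P = 0.0658) and did with DESeq2 (adjusted P = 0.00316). *Gm25106*, a gene placed over *Ikzf3*, has no row in the table.

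*Ikzf2* (Entrez 22779, chr1:69531207-69687351), which encodes Helios and is better known from T cells, was by far the lowest of the 10. It had 1.77 and 2.61 CPM in Ctrl early LPre-B, 1.49 and 1.57 in Ctrl sPre-B, 1.66 and 1.85 in cKO early LPre-B and 4.37 and 2.74 in cKO sPre-B cells, on 126 and 111 counts in the Ctrl sPre-B libraries. Both cKO sPre-B libraries were higher than all others, although replicate 2 exceeded replicate 2 of Ctrl early LPre-B cells only slightly. In cKO cells its Log2FC between stages was 1.02 (SE 0.29, adjusted P = 0.0135), and in sPre-B cells its Log2FC for cKO against Ctrl was 1.21 (SE 0.29, adjusted P = 0.0129) in edgeR's test. The call between stages was lost without replicate 1 of cKO sPre-B (Log2FC 0.64) or of cKO early LPre-B cells, and the call in sPre-B cells without cKO replicate 1 (0.84) or either Ctrl replicate. In Ctrl cells the Log2FC between stages was −0.51 (SE 0.29, adjusted P = 0.160) and in early LPre-B cells that for cKO against Ctrl was −0.32 (SE 0.29, adjusted P = 0.441), neither of them called. Of the 2 further family members tested, *Ikzf5* was lower in cKO early LPre-B cells (Log2FC −0.33, adjusted P = 0.0311, edgeR's test) and in cKO sPre-B cells (−0.40, adjusted P = 0.0142), and *Ikzf4* was called in no comparison.

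*Irf4* and *Irf8* both rose with stage, and in sPre-B cells *Irf4* was lower and *Irf8* higher in cKO. *Irf4* (Entrez 16364, chr13:30749233-30766981), which supports light chain rearrangement downstream of the pre-B cell receptor, had 672 and 673 CPM in Ctrl early LPre-B and 1026 and 984 in Ctrl sPre-B cells. It had 395 and 457 in cKO early LPre-B and 519 and 732 in cKO sPre-B cells. Each cKO library was below both Ctrl libraries of its stage, and in cKO sPre-B cells the 2 replicates lay apart. The Log2FC between stages was 0.58 (SE 0.17, adjusted P = 0.0171) in Ctrl and 0.55 (SE 0.17, adjusted P = 0.0200) in cKO cells in edgeR's test, the latter lost without cKO sPre-B replicate 2 (Log2FC 0.28, adjusted P = 0.189) or cKO early LPre-B replicate 1 (0.45, adjusted P = 0.124). For cKO against Ctrl it was −0.66 (SE 0.17, adjusted P = 0.0195) in early LPre-B cells, lost without cKO replicate 1 or either Ctrl replicate. In sPre-B cells it was −0.68 (SE 0.17, adjusted P = 0.0153), which became −0.45 (adjusted P = 0.109) without cKO replicate 1.

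*Irf8* (Entrez 15900, chr8:120736358-120756694) is a factor of B cells as well as of dendritic and myeloid cells. It had 191 and 149.5 CPM in Ctrl early LPre-B, 231 and 247 in Ctrl sPre-B, 213 and 228 in cKO early LPre-B and 338 and 301 in cKO sPre-B cells. Both cKO libraries were above both Ctrl libraries at each stage, the opposite order to *Irf4*. Between stages its Log2FC was 0.49 (SE 0.13, adjusted P = 0.0106) in Ctrl and 0.53 (SE 0.13, adjusted P = 0.00678) in cKO cells in edgeR's test, the latter at an adjusted P of 0.0520 without cKO sPre-B replicate 1. In sPre-B cells it was 0.42 (SE 0.13, adjusted P = 0.0368) for cKO against Ctrl, a call lost without either Ctrl sPre-B library or any 1 of the 4 cKO libraries (Log2FC 0.33 to 0.50), and in early LPre-B cells 0.38 (SE 0.13, adjusted P = 0.0589), not called. With a term for Y-linked counts the sPre-B call of *Irf8* was also lost (Log2FC 0.35, adjusted P = 0.0857, edgeR's test). The 6 dendritic cell markers summed to 15.4 and 20.1 CPM in Ctrl early LPre-B, 73.2 and 124 in Ctrl sPre-B, 22.1 and 27.7 in cKO early LPre-B and 401 and 358 in cKO sPre-B cells. *Itgax*, the gene of the integrin CD11c, gave 63.2 and 114 of this sum in Ctrl and 376 and 332 in cKO sPre-B cells, and was higher in cKO there (Log2FC 1.99, adjusted P = 0.00304, edgeR's test) as well as in sPre-B against early LPre-B cells of both genotypes (3.58 and 5.70, adjusted P = 6.35e-05 and 8.43e-06). *Siglech*, a marker of plasmacytoid dendritic cells, rose with stage (Log2FC 1.95 in Ctrl and 3.45 in cKO cells, adjusted P = 0.0165 and 0.00126) at levels under 1 CPM in all 8 libraries. Of the markers named after their values were seen, *Xcr1* stayed under 1 CPM and *Cd209d* had at most 7 counts. *Bst2*, another of the 6, was higher in cKO cells of both stages (Log2FC 0.84 and 1.75, adjusted P = 0.00924 and 0.000265 in edgeR's test). *Flt3* was higher in cKO early LPre-B cells (Log2FC 1.01, adjusted P = 0.0315, edgeR's test). Of the 5 markers tested, 2 were higher in cKO at each stage, beside 14.5% of all genes in early LPre-B and 19.8% in sPre-B cells. The part of these markers in the *Irf8* values was not tested.

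**Figure D2:**
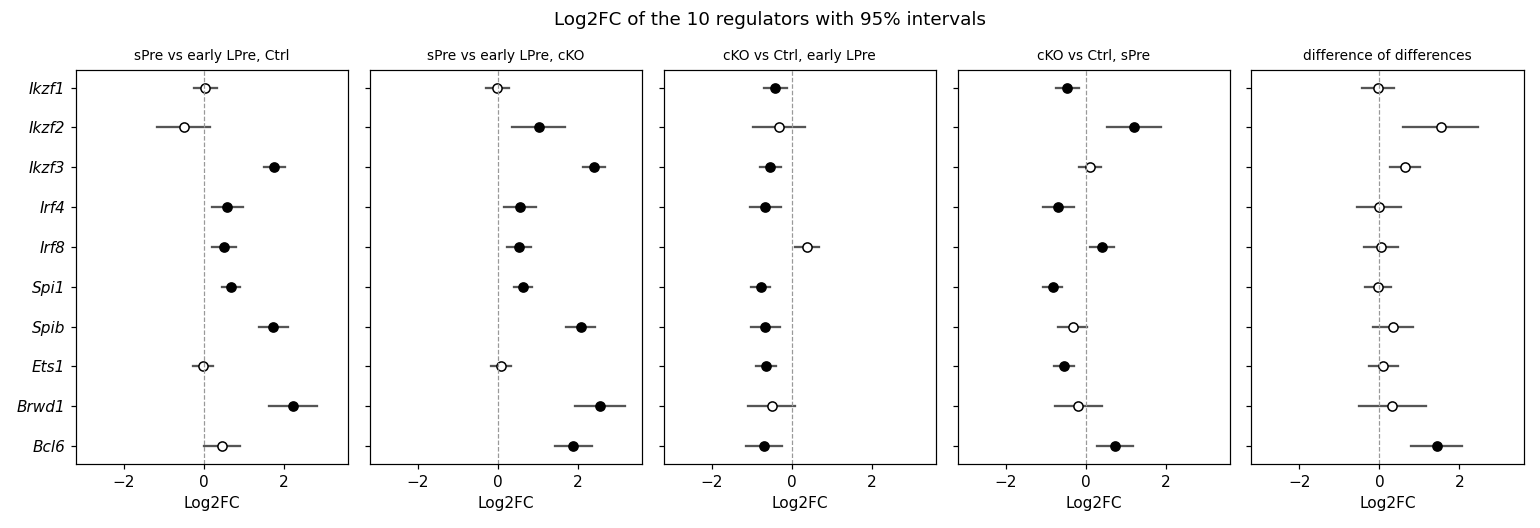
Log2FC (x axis) of the 10 regulators (rows) in the 4 comparisons between groups and in the interaction (panel difference of differences), with 95% intervals as lines and filled points at an adjusted P under 0.05. Points of *Ikzf3*, *Spib* and *Brwd1* lie furthest to the right between stages, 7 filled points lie left of 0 in early LPre-B cells, and *Bcl6* is the only filled point in the interaction.

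Among the 3 ETS factors of the list, *Spib* moved most with stage, and the lower levels of *Spi1* and *Ets1* in cKO cells were called at both stages without any single library. *Spi1* (Entrez 20375, chr2:91082374-91115759), the gene of PU.1, had 53.5 and 47.4 CPM in Ctrl early LPre-B, 77.8 and 83.5 in Ctrl sPre-B, 30.9 and 27.9 in cKO early LPre-B and 43.5 and 47.4 in cKO sPre-B cells. The stages did not overlap within a genotype, and the genotypes did not overlap within a stage. Its Log2FC between stages was 0.68 (SE 0.10, adjusted P = 0.000463) in Ctrl and 0.63 (SE 0.10, adjusted P = 0.000673) in cKO cells in edgeR's test. For cKO against Ctrl it was −0.78 (SE 0.10, adjusted P = 0.000851) in early LPre-B and −0.83 (SE 0.10, adjusted P = 0.000527) in sPre-B cells. PU.1 is also the defining factor of myeloid cells, and the summed level of 8 myeloid markers was likewise higher in sPre-B than in early LPre-B cells and lower in cKO than in Ctrl cells. They summed to 111 and 134 CPM in Ctrl early LPre-B, 304 and 355 in Ctrl sPre-B, 50.1 and 55.6 in cKO early LPre-B and 211 and 243 in cKO sPre-B cells. *Itgam* made up 87.1 and 97.4 CPM of the first of these sums and 30.4 and 41.2 of that in cKO early LPre-B cells. Of the 8 markers, 4 rose with stage in Ctrl and 6 in cKO cells, beside 29.1% and 31.6% of all genes. In cKO early LPre-B cells 2 (*Itgam* and *Lyz2*) were lower and in cKO sPre-B cells 1 (*Itgam*), beside 16.9% and 14.9% of all genes. The granule genes *Mpo* and *Elane*, named after their values were seen, had 4 to 461 and 3 to 108 counts over the 8 libraries, both lowest in Ctrl early LPre-B replicate 1 and highest in Ctrl sPre-B replicate 2. The part of myeloid RNA in the *Spi1* values was not tested.

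*Spib* (Entrez 272382, chr7:44525995-44532087), a lymphoid relative of PU.1, had 603 and 603 CPM in Ctrl early LPre-B and 1896 and 2098 in Ctrl sPre-B cells. Its cKO values were 398 and 363 in early LPre-B and 1779 and 1412 in sPre-B cells. Its sPre-B libraries stood far above the early LPre-B libraries in both genotypes. The Log2FC between stages was 1.73 (SE 0.16, adjusted P = 2.83e-05) in Ctrl and 2.07 (SE 0.16, adjusted P = 1.18e-05) in cKO cells in edgeR's test. In early LPre-B cells its Log2FC for cKO against Ctrl was −0.66 (SE 0.16, adjusted P = 0.0130), a call lost on leaving out any of the 4 libraries compared, at a largest adjusted P of 0.0830. In sPre-B cells its cKO libraries were also below the Ctrl libraries, but the Log2FC of −0.32 (SE 0.16, adjusted P = 0.141) did not pass the test in edgeR and did with DESeq2 (adjusted P = 0.0268).

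*Ets1* (Entrez 23871, chr9:32636241-32757820) keeps mature B cells from turning into plasma cells. It had 741 and 698 CPM in Ctrl early LPre-B, 716 and 704 in Ctrl sPre-B, 447 and 477 in cKO early LPre-B and 495 and 477 in cKO sPre-B cells. All 4 cKO libraries were lower than all 4 Ctrl libraries, and the stages overlapped within each genotype, the pattern of *Ikzf1*. Its Log2FC for cKO against Ctrl was −0.64 (SE 0.11, adjusted P = 0.00355) in early LPre-B and −0.55 (SE 0.11, adjusted P = 0.00619) in sPre-B cells in edgeR's test. Between stages it was −0.02 (95% interval −0.27 to 0.24) in Ctrl and 0.07 (−0.18 to 0.33) in cKO cells. The sign in Ctrl cells changed with the setting and no direction is drawn from it.

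*Brwd1* rose strongly with stage in both genotypes, in cKO cells by an amount that its SE does not separate from that of *Ikzf3*. *Brwd1* (Entrez 93871, chr16:95992089-96082703) had 109 and 197 CPM in Ctrl early LPre-B and 614 and 818 in Ctrl sPre-B cells. Its cKO values were 105 and 111 in early LPre-B and 692 and 572 in sPre-B cells. Its sPre-B libraries stood far above the early LPre-B libraries in both genotypes, and Ctrl replicate 2 was higher than Ctrl replicate 1 at both stages. The Log2FC between stages was 2.23 (SE 0.27, adjusted P = 0.000130) in Ctrl and 2.55 (SE 0.27, adjusted P = 6.33e-05) in cKO cells in edgeR's test, higher than that of 95.9% and 95% of all genes tested. For cKO against Ctrl it was −0.50 (SE 0.26, adjusted P = 0.172) in early LPre-B and −0.18 (SE 0.26, adjusted P = 0.628) in sPre-B cells, neither of them called. Without Ctrl early LPre-B replicate 2 the first became 0.04 and without replicate 1 it was called at −0.83 (adjusted P = 0.0235), and without Ctrl sPre-B replicate 2 the second became 0.01, so no direction is drawn.

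*Bcl6* rose with stage in cKO cells and was the 1 regulator whose difference between genotypes was called different between the stages. The gene (Entrez 12053, chr16:23965050-23988866) had 24.0 and 19.0 CPM in Ctrl early LPre-B, 35.4 and 23.5 in Ctrl sPre-B, 12.2 and 14.6 in cKO early LPre-B and 50.3 and 48.4 in cKO sPre-B cells. Its 2 cKO early LPre-B libraries were the lowest of the 8 and its 2 cKO sPre-B libraries the highest, and in Ctrl cells the stages overlapped. Between stages the Log2FC was 1.88 (SE 0.20, adjusted P = 6.82e-05) in cKO cells and 0.45 (SE 0.20, adjusted P = 0.0771) in Ctrl cells in edgeR's test. The latter was called without Ctrl sPre-B replicate 2 (Log2FC 0.78, adjusted P = 0.00459) or without Ctrl early LPre-B replicate 1 (0.69, adjusted P = 0.0472). On all 8 libraries the rise in Ctrl cells was called by DESeq2 (Log2FC 0.48, adjusted P = 0.0337). It was also called in edgeR's test without the expression filter (0.44, adjusted P = 0.0372) and with a term for Y-linked counts (0.43, adjusted P = 0.0117). For cKO against Ctrl the Log2FC was −0.69 (SE 0.20, adjusted P = 0.0299) in early LPre-B and 0.75 (SE 0.20, adjusted P = 0.0191) in sPre-B cells. The first call was lost without Ctrl early LPre-B replicate 1 or either cKO early LPre-B library, and the second without Ctrl sPre-B replicate 2 or either cKO sPre-B library, where the lowest Log2FC was 0.45.

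The interaction of stage and genotype gave a Log2FC of 1.43 (SE 0.28, adjusted P = 0.0301) for *Bcl6* in edgeR's test, the 1 regulator called higher, beside 2.64% of all genes tested. None was called lower, beside 1.6%, and none at an unadjusted P under 0.05 or with DESeq2. At an unadjusted P under 0.05, 3 were higher (*Bcl6*, *Ikzf2* and *Ikzf3*), and DESeq2 called these 3. The *Bcl6* call was lost without any single library other than Ctrl sPre-B replicate 1, with a Log2FC of at least 1.09, and without both Ctrl replicate 2 libraries (Log2FC 1.24, adjusted P = 0.0610). *Ikzf2*, with a Log2FC of 1.53 (SE 0.41, adjusted P = 0.0749), did not pass. *Irf4* (95% interval −0.57 to 0.53), *Irf8* (−0.38 to 0.46), *Spi1* (−0.37 to 0.28), *Ets1* (−0.27 to 0.45) and *Ikzf1* (−0.44 to 0.37) had intervals around 0 on the log2 scale. The 6 markers of mature B cells summed to 577 and 708 CPM in Ctrl and 1128 and 870.3 in cKO sPre-B cells, against 335 and 363 in Ctrl and 409.7 and 439.9 in cKO early LPre-B cells. In sPre-B cells 4 of the 6 were higher in cKO, beside 19.8% of all genes, led by *Fcer2a* (Log2FC 3.32, adjusted P = 0.000735, edgeR's test) and *Cr2* (1.21, adjusted P = 0.00189), and the part of more mature cells in the *Bcl6* and *Ikzf2* values was not tested. The sPre-B gate takes CD25+ cells without surface IgM.

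The ratio of 2 related genes within a library does not depend on the scaling between libraries. The count ratio of *Ikzf3* to *Ikzf1* was 0.215 and 0.218 in Ctrl early LPre-B, 0.664 and 0.781 in Ctrl sPre-B, 0.192 and 0.209 in cKO early LPre-B and 1.10 and 1.03 in cKO sPre-B cells. All 4 sPre-B libraries were above all 4 early LPre-B libraries, and the cKO sPre-B libraries were highest. The mean log2 ratio differed by 2.07 between the stages (two-sided exact permutation test over 4 against 4 libraries, p = 0.0286, the smallest it can give, and 0.0429 adjusted over 3 ratios). The count ratio of *Spib* to *Spi1* was 11.3 and 12.7 in Ctrl early LPre-B, 24.4 and 25.1 in Ctrl sPre-B, 12.9 and 13 in cKO early LPre-B and 40.9 and 29.8 in cKO sPre-B cells. It was likewise higher in all sPre-B libraries, by 1.24 on the log2 scale (exact permutation p = 0.0286, adjusted 0.0429). With stage permuted within genotype only, which allows 36 arrangements and no p below 0.0556, the exact permutation p was 0.0556 for both ratios, and neither passed. Within 1 genotype the *Ikzf3* to *Ikzf1* ratio rose by 1.73 in Ctrl and 2.41 in cKO cells on the log2 scale, and the *Spib* to *Spi1* ratio by 1.05 and 1.43.

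The count ratio of *Irf4* to *Irf8* behaved otherwise. It was 3.53 and 4.50 in Ctrl early LPre-B, 4.45 and 3.98 in Ctrl sPre-B, 1.86 and 2.0 in cKO early LPre-B and 1.54 and 2.43 in cKO sPre-B cells. The stages overlapped, with a difference of 0.04 in the mean log2 ratio (exact permutation p = 0.943). Every cKO library was below every Ctrl library, with a mean log2 ratio of 0.95 ± 0.27 (SD, n = 4) against 2.03 ± 0.16 (SD, n = 4). This split was noticed in the values and is given as a description, with a difference of −1.08 over all libraries, −1.05 in early LPre-B and −1.12 in sPre-B cells taken alone.

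**Figure D3:**
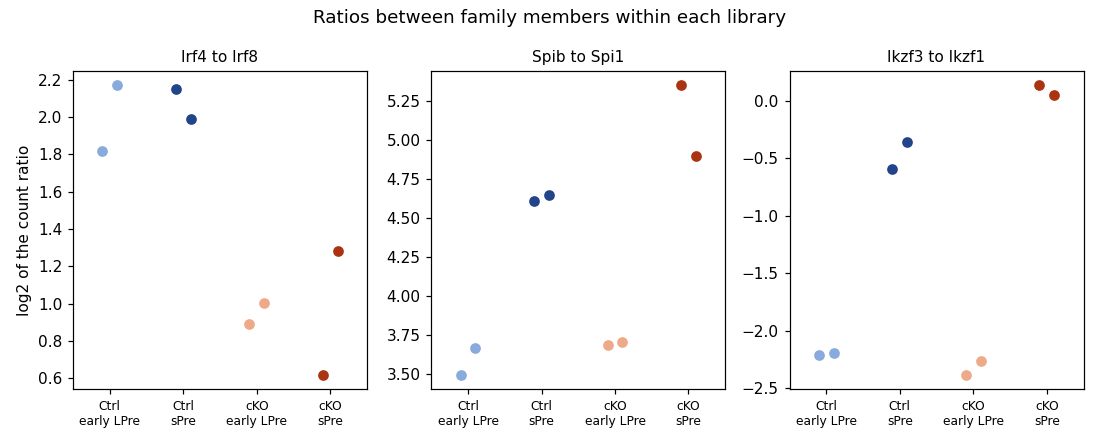
Log2 of the count ratio (y axis) of *Irf4* to *Irf8*, *Spib* to *Spi1* and *Ikzf3* to *Ikzf1* in each of the 8 libraries, 2 points per group. The *Irf4* to *Irf8* ratio lies lower in the 4 cKO libraries at both stages, whereas the other ratios lie higher in the 4 sPre-B libraries.

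Other genes of the same families moved in part alongside. Of the 7 other IRF genes, 6 were higher in sPre-B than in early LPre-B cells in each genotype, beside 29.1% of all genes in Ctrl and 31.6% in cKO cells, led by *Irf5* (Log2FC 2.15 in Ctrl and 2.58 in cKO cells, adjusted P = 3.94e-06 and 2.16e-06, edgeR's test) and *Irf1* (1.23 and 1.37, adjusted P = 0.000329 and 0.000171), both of which act in innate and interferon responses. For cKO against Ctrl, *Irf5* in early LPre-B cells was the 1 of the 7 called (Log2FC −0.48, adjusted P = 0.0228), a share near that of all genes called lower at this stage (16.9%). Of the 15 other ETS genes, 7 were higher and 6 lower in Ctrl sPre-B cells and 9 higher and 4 lower in cKO sPre-B cells, beside 29.1% and 31.1% of all genes in Ctrl and 31.6% and 31.1% in cKO cells, *Elk3* being higher in both (Log2FC 1.17 and 1.12). Of the same 15 genes, 10 were lower in cKO early LPre-B cells, beside 16.9% of all genes, with *Erg* (Log2FC −1.49, adjusted P = 0.000223) and *Elk4* (−1.01, adjusted P = 0.000241) in front, and the list had a median Log2FC of −0.52. In sPre-B cells 7 were lower and 2 higher, beside 14.9% and 19.8%. The PU.1 relative *Spic*, best known from red pulp macrophages, had 34 and 13 counts in Ctrl early LPre-B, 48 and 39 in Ctrl sPre-B, 11 and 2 in cKO early LPre-B and 369 and 433 in cKO sPre-B cells. It rose with stage in cKO cells (Log2FC 6.03, adjusted P = 3.83e-05, edgeR's test). It was higher in cKO than in Ctrl sPre-B cells (Log2FC 2.73, adjusted P = 0.00281, edgeR's test) and was the 1 ETS gene called in the interaction (4.62, adjusted P = 0.0182), at low counts.

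Partners and targets of the regulators were read from 3 further lists. Of 17 subunits of the NuRD, NCoR and BCOR complexes, through which Ikaros proteins and BCL6 repress genes, 12 were lower in sPre-B cells of each genotype, beside 31.1% of all genes in both. *Mta1* (Log2FC −1.91 in Ctrl and −1.62 in cKO cells, adjusted P = 1.87e-06 and 3.89e-06, edgeR's test) and *Rbbp7* (−2.05 and −1.91, adjusted P = 2.82e-06 and 4.06e-06) led, and *Bcor*, the corepressor of BCL6, was higher (0.29 and 0.67, adjusted P = 0.0415 and 0.000672). For cKO against Ctrl, 1 of the 17 was higher and 5 were lower in early LPre-B cells, and 2 were higher and 2 lower in sPre-B cells, beside 14.5% and 16.9% of all genes at the first stage and 19.8% and 14.9% at the second. Of 13 genes of the small pre-B programme, which include the gate genes *Cd2* and *Il2ra*, 12 were higher in sPre-B cells in Ctrl and 13 in cKO cells, beside 29.1% and 31.6% of all genes. Of these 13, 11 were lower in cKO than in Ctrl early LPre-B cells, beside 16.9% of all genes, with *Rag1* (Log2FC −2.74, adjusted P = 0.000148), a subunit of the recombinase, and *Foxo1* (−1.0, adjusted P = 0.000230), its activator, in front, and in sPre-B cells 5 were lower, beside 14.9%. The markers *Cd2*, *Il2ra*, *Rag1* and *Rag2* summed to 539.9 and 530.0 CPM in Ctrl and 104 and 156 in cKO early LPre-B cells. The markers *Spn*, *Kit*, *Igll1* and *Vpreb1* of the large stage summed to 779.9 and 566 CPM in Ctrl and 467 and 487 in cKO early LPre-B cells, with *Kit* (Log2FC −2.51, adjusted P = 0.00387) and *Spn* (−0.57, adjusted P = 0.0172) lower in cKO in edgeR's test. The 7 regulators that were lower in cKO early LPre-B cells thus stood beside lower sums of the markers of both stages. For the large stage the 2 Ctrl sums lay far apart, and Ctrl replicate 2 was close to the cKO sums. Called lower were 3 of the 4 small-stage and 2 of the 4 large-stage markers, beside 16.9% of all genes. The small-stage markers are part of the 13 genes counted above, and the large-stage markers of the 12 below. *Cd2*, *Igll1* and *Vpreb1* were not called, and the part of these markers in the regulators' values was not tested. Of 12 genes of the large pre-B programme, 9 were lower in Ctrl sPre-B cells and 8 in cKO sPre-B cells, beside 31.1% of all genes in both, among them *Igll1* (Log2FC −5.56 and −4.54, adjusted P = 6.87e-07 and 1.06e-06), a target that Ikaros and Aiolos silence. *Il7r*, the gene of the IL-7 receptor, went the other way in cKO cells (Log2FC 0.75, adjusted P = 0.0121, edgeR's test). Between genotypes 3 of the 12 were higher and 3 lower in cKO early LPre-B cells, beside 14.5% and 16.9% of all genes, with *Myc* (Log2FC 0.86, adjusted P = 0.00924) and *Ccnd2* (0.91, adjusted P = 0.0161) among the higher ones in edgeR's test. In sPre-B cells 5 of the 12 were higher in cKO, beside 19.8% of all genes, led by *Ccnd2* (3.67, adjusted P = 4.07e-05) and *Myc* (1.55, adjusted P = 0.000852), both drivers of division.

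**Figure D4:**
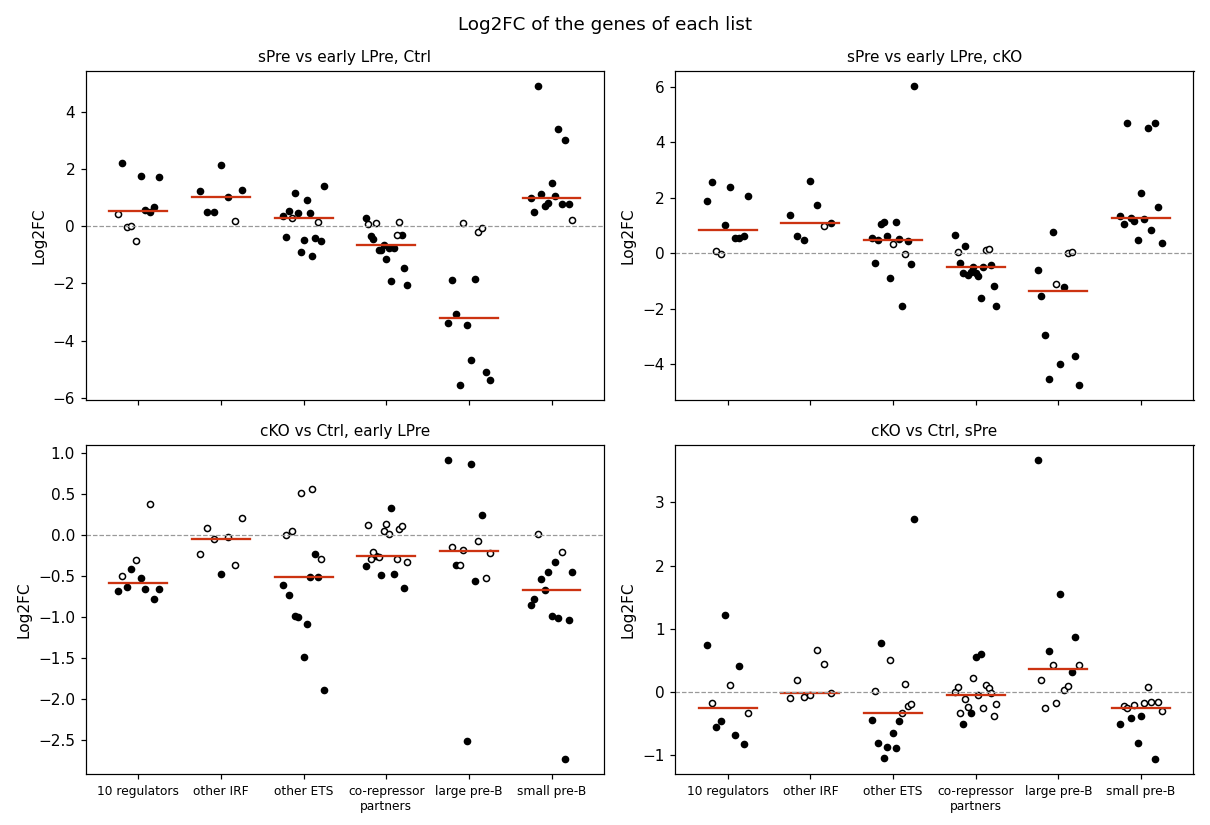
Log2FC (y axis, scaled separately in each panel) of the genes of 6 lists in the 4 comparisons between groups, with filled points at an adjusted P under 0.05 and a red line at the median of each list. Between stages the large pre-B list has its median below 0 and the small pre-B list above it, and in the early LPre-B panel the filled points of the 10 regulators, the other ETS genes and the small pre-B list lie below 0.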

How the data were processed

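RNA of sorted early LPre-B and sPre-B cells was sequenced in 8 libraries after removal of ribosomal RNA. The authors used Trim Galore, HISAT2 with the mm10 genome and featureCounts, and deposited raw counts per Entrez gene, not split by strand and without normalization, so counts of overlapping genes are uncertain. Of 27179 genes, 25275 were named from RefSeq. Tests used edgeR 4.0.16 under R 4.3.3, with TMM factors of 0.862 to 1.09, and CPM were computed with these factors. The 17700 genes that passed edgeR's filter were fitted with 1 mean per group over all 8 libraries (common biological coefficient of variation 0.174) and compared by quasi-likelihood tests, two-sided, whose P values were adjusted after Benjamini and Hochberg across the genes fitted and called under 0.05. Levels per kilobase used exon lengths of GENCODE M21. The fit and the permutation test were tested on simulated data with known changes. Totals of 68516857 to 160426338 counts set the precision of each library. Alternatives were median-ratio factors, DESeq2 1.42.0, the likelihood-ratio test, no filter, leaving out 260 immunoglobulin genes, a block, a term for Y-linked counts, fewer libraries and, added after seeing the data, leaving out both Ctrl replicate 2 libraries. The regulators and gene lists were chosen with earlier results of these data known. All 10 regulators are named, and of each other list at most the 2 genes with the lowest adjusted P in each direction, unless said otherwise. T and NK cell (1.91 to 10.2 CPM summed), erythroid (2.56 to 20.6) and plasma cell markers (36.0 to 109) were also read.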

Additional observations from a re-analysis of the deposited data

Results flagged for a closer look

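The difference in *Bcl6* between cKO and Ctrl cells differed between the stages by a Log2FC of 1.43, from −0.69 in early LPre-B to 0.75 in sPre-B cells, in edgeR's interaction test (adjusted P = 0.0301), with 2 libraries per group. It did not pass that test without any 1 of 7 of the 8 libraries. The Log2FC without 1 library lay between 1.09 and 1.68.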

How the results depend on the processing

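Of 840 values recomputed for single regulators, 735 kept their direction and their side of the threshold, 55 no longer passed, 22 passed in addition and 28 changed sign, none of which had passed. The replicate block changed 1 call, *Irf8* in early LPre-B cells (adjusted P = 0.0493, edgeR), with 8 regulators called there. The labels do not say that same-numbered libraries share a mouse, and their deviations correlated by 0.0561 to 0.375 across genes, most for the Ctrl groups, whose replicate 2 libraries both carry Y-linked counts. Without both Ctrl replicate 2 libraries 4 regulators were called in early LPre-B cells, and without 1 library 2 to 8, against 2 to 7 in sPre-B cells. For the interaction DESeq2 called 3, the likelihood-ratio test 3, no filter 2 and the Y-linked term 2. The count was 0 in edgeR's test without both Ctrl replicate 2 libraries (lowest adjusted P = 0.0610, *Bcl6*) and 0 to 1 without 1 library. The cause of these shifts was not tested, apart from fewer libraries. Without 1 replicate number the log2 ratio differed between stages by 1.09 to 1.39 for *Spib* to *Spi1* and 2.07 to 2.08 for *Ikzf3* to *Ikzf1*, where 2 against 2 libraries allow no exact permutation p below 0.333. With stage permuted within genotype, an alternative chosen after seeing the data, the differences of 1.24 and 2.07 had an exact permutation p of 0.0556, the smallest 36 arrangements allow.

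Signs changed as follows. Between stages in Ctrl cells, *Ets1* was at 0.0079 with median-ratio factors, 0.0057 with DESeq2, 0.022 without both Ctrl replicate 2 libraries and −0.020 to 0.080 without 1 library. Between stages in cKO cells, *Ikzf1* was at 0.0032 without immunoglobulin genes and −0.031 to 0.00088 without 1 library. In early LPre-B cells *Ikzf2* and *Brwd1* were at 0.037 and 0.038 without both Ctrl replicate 2 libraries, and at −0.54 to 0.036 and −0.83 to 0.037 without 1 library. In sPre-B cells *Brwd1* was at 0.15 with the Y-linked term, 0.0050 without both Ctrl replicate 2 libraries and −0.41 to 0.0063 without 1 library. In the interaction *Irf8* was at −0.00044 with DESeq2 and *Brwd1* at −0.033 without both Ctrl replicate 2 libraries. Without 1 library the interaction ran from −0.22 to 0.12 for *Irf8*, −0.024 to 0.14 for *Ets1*, −0.25 to 0.62 for *Brwd1*, −0.21 to 0.027 for *Spi1* and −0.30 to 0.20 for *Irf4*.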
